A study of Mus musculus with 8 samples.

Results

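TRBV3 clones are T cells whose productive T cell receptor β chain carries the variable segment TRBV3. They were chosen as every productive TRB contig with that V label in 4 deposited tables of assembled receptor chains. The rule found 495 of 6795 productive TRB contigs, in 493 of 6509 cells with a β chain. With a clone taken as a clonotype of the deposited table, it found 322 of 4344 clonotypes with a β chain, which is 7.41% of clonotypes and 7.57% of cells. A β chain was counted for a clonotype when most of the clonotype's cells with a β chain carried it. In 3 further clonotypes a TRBV3 chain was seen in a minority of the cells, as a second β chain, and those 3 were counted with the other TRBV segments.

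The cells came from brain parenchyma of C57BL/6 mice and were sorted as CD45+ leukocytes, and their receptors were read with a single-cell immune profiling kit. The 2 groups were 5xFAD, a mouse line with transgenes for mutant human amyloid precursor protein and presenilin, and 5xFAD;Cxcr6-/-, which carries the same transgenes and also lacks the chemokine receptor CXCR6. Each group had 2 libraries, named here by genotype and number, and both groups are 5xFAD, so no group without amyloid transgenes is compared. Age, sex, time and the number of mice behind a library are not given in the sources used here, so p-values here reflect no more than how these libraries vary. The title of the series puts the question as what CXCR6 does for brain CD8+ T cells, but CD4 and CD8 cannot be read from receptor chains, and the series' 4 transcriptome samples were not used here.

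A β chain is built in the thymus by joining a V, a D and a J segment, with bases trimmed and added at the joints. The stretch across the joints is the third complementarity-determining region (CDR3), which touches the presented peptide, while the V segment encodes the loops that mainly touch the MHC molecule. Because the joint is made anew in each cell, cells with the same CDR3 nucleotides and the same α chain usually descend from 1 cell, and the same CDR3 residues written with different bases mark separate joining events.

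TRBV3 lies on chromosome 6 (GRCm38, chr6:41048290-41048828, plus strand) and is annotated by GENCODE as a TR_V_gene with a leader exon at chr6:41048290-41048442 and a V exon at chr6:41048527-41048828. The clones were listed for study as Vβ9, but the RefSeq gene table on GRCm38.p6 gives Tcrb-V16 as the older name of Trbv3 and Tcrb-V9 as that of Trbv17, so only the name TRBV3 is used. The V label was checked on the contigs themselves. All 495 contigs had the same framework 1 to framework 3 nucleotides and the same loops, identical to the GENCODE transcript. The CDR1 and CDR2 loops that define TRBV3 are shown here because every member has them:
TRBV3 CDR1: tctaatcacctatat
TRBV3 CDR2: ttctacaatggtaaagtc

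With the V segment the same in all, TRBV3 β chains differ in their joint. Among all TRB chains of all V segments, 2 CDR3 amino-acid sequences were found in 3 or more of the 4 libraries, and both were TRBV3 sequences joined to TRBJ1-3. They have 15 residues and differ only at residue 5, which is leucine or proline, and both go on with glycine at 6 and arginine at 7 and 8. Every β chain within 1 residue of either sequence was then collected, whatever its V segment. This gave 13 clonotypes, and 13 of 13 used TRBV3 and TRBJ1-3. The 13 include the clonotypes of the 2 starting sequences, whose segments were known before the search. Residues 9 to 15 of both sequences are encoded by the germline start of TRBJ1-3. The search therefore left little room for another J segment, and the shared TRBJ1-3 is not a result. In 11 of the 13, with 31 cells and in all 4 libraries, both arginines were present, and residue 5 was leucine, proline, glutamine, serine or alanine. The pair of arginines was also searched for in all chains, as the last 10 residues of these CDR3s. The 9 chains that had them, counted once per library and nucleotide sequence, were all TRBV3. The search started from TRBV3 sequences, and 6 of the 9 are those sequences themselves. TRBV3 made up 33 of 264 (12.5%) TRBJ1-3 chains. This group was singled out after its values were seen and is described without a test.

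The 8 nucleotide versions of the 11 clonotypes are shown with codons 5 to 8 in capitals, the only codons at which they differ, because they show the same residues written in different bases. They are named by library, cells and residue 5, and the germline ends are given first:
TRBV3 germline, from the cysteine codon to the joint: tgtgccagcagcttagc
TRBJ1-3 germline, from the joint to the CDR3 end: ttctggaaatacgctctatttt
5xFAD 1, 12 cells, leucine: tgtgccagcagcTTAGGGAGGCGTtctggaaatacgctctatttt
5xFAD 2, 1 cell, leucine: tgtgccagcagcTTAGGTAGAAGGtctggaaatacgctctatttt
5xFAD;Cxcr6-/- 1, 1 cell, leucine: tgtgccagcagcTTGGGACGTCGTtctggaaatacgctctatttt
5xFAD 1 (clonotypes of 3, 1 and 1 cells) and 5xFAD;Cxcr6-/- 2 (1 cell), proline: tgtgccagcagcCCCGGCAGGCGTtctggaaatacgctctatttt
5xFAD;Cxcr6-/- 1, 3 cells, proline: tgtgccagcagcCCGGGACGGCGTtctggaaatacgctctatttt
5xFAD 2, 6 cells, glutamine: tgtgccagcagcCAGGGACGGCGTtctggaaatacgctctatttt
5xFAD 2, 1 cell, serine: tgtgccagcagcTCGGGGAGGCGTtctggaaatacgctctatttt
5xFAD;Cxcr6-/- 2, 1 cell, alanine: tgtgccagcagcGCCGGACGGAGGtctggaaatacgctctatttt

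All 8 versions kept at least the first 12 germline TRBV3 bases. The whole germline start of TRBJ1-3, 22 bases, was kept in 9 of the 11 clonotypes, in which codon 8 was CGT and its last base is the first base of the J segment. The arginine at position 8 was AGG in the other 2. Codons 7 and 8 together were written in 5 ways. The leucine sequence had 3 nucleotide versions in 3 libraries, and the proline sequence had 2 versions in 3 libraries. A single nucleotide sequence was shared between libraries, the proline version of 5xFAD 1 and 5xFAD;Cxcr6-/- 2. No cell barcode carried TRBV3 in 2 libraries. Of 28 barcodes present in 2 libraries, 2 carried TRBV3 in either, and neither of these cells had the recurrent joint.

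The α partners of the 11 clonotypes differed. An α chain was assembled for 8 of them, and the 8 used 8 different combinations of TRAV and TRAJ. The 12-cell clonotype of 5xFAD 1 was paired with TRAV7-5 and TRAJ37. The single 5xFAD 2 cell with leucine carried TRAV11 with TRAJ18, the invariant α chain of iNKT cells. TRAJ32 was the only J segment seen more than once, in 3 of the 8, against 13 of 276 (4.71%) TRBV3 clonotypes with an α chain and 2.89% of other clonotypes with one. The 13 include these 3, and TRAJ32 was picked because it recurred, so its share was not tested. Those 3 α chains, from the glutamine, proline and leucine forms, are shown because they share their J segment but not their V segment:
5xFAD 2, 6 cells, TRAV14D-1 with TRAJ32: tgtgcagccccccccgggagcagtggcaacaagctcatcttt
5xFAD 1, 3 cells, TRAV12-3 with TRAJ32: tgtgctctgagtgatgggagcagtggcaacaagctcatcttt
5xFAD;Cxcr6-/- 1, 1 cell, TRAV6-7-DV9 with TRAJ32: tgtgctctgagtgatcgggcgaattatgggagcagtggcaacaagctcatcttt

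The clonotypes with 2 arginines made up 4 of 90 TRBV3 clonotypes in 5xFAD 1, 3 of 104 in 5xFAD 2, 2 of 56 in 5xFAD;Cxcr6-/- 1 and 2 of 72 in 5xFAD;Cxcr6-/- 2, or 2.78% to 4.44%. The number of cells was less even. They held 17 of 152 TRBV3 clonotype cells (11.2%) in 5xFAD 1, 8 of 173 (4.62%) in 5xFAD 2, 4 of 66 (6.06%) in 5xFAD;Cxcr6-/- 1 and 2 of 99 (2.02%) in 5xFAD;Cxcr6-/- 2. Of the 11, 4 had 2 or more cells, and the 2 largest were in the 5xFAD libraries. The 3 clonotypes of 5xFAD 1 with the proline form had the same β nucleotides, and 2 of them, of 1 cell each, had no α chain. These 2 cannot be told apart from cells of the third clonotype, so the 4 clonotypes and 4.44% of 5xFAD 1 may be too high.

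**Figure D1:**
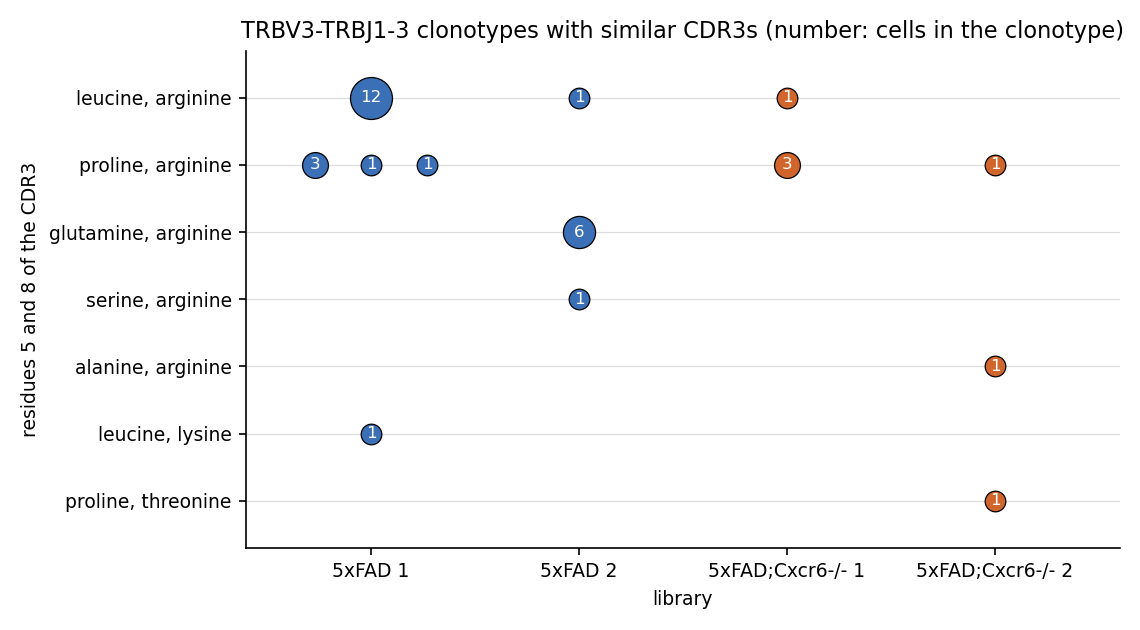
Clonotypes whose CDR3 is within 1 residue of a TRBV3 CDR3 found in 2 or more libraries, by library (x axis) and by residues 5 and 8 (y axis). Each circle is a clonotype, its area grows with the number of cells written in it, and blue is 5xFAD and orange 5xFAD;Cxcr6-/-. All 13 clonotypes use TRBV3 and TRBJ1-3, which was known beforehand for those of the 2 sequences that started the search. The search itself left little room for another J segment. The 11 with arginine at residue 8 are spread over all 4 libraries.

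Sharing was otherwise rare in TRBV3. Of 299 distinct TRBV3 CDR3 sequences, the 2 just described were the ones present in 2 or more libraries, which is 0.669%. The other TRBV segments had 22 of 4061 (0.542%), none of them in 3 libraries. Among the 18 TRBV labels with at least 100 distinct CDR3s, TRBV3 ranked 7 by the percentage shared. A CDR3 identical or within 1 residue of a TRBV3 CDR3 in another library was found for 33 of 299 (11.0%), against 347 of 4061 (8.54%) in the other segments when each was compared within its own V label. TRBV3 ranked 5 of 18 on this measure, which grows with the number of sequences compared. Between pairs of libraries, 0 to 2 TRBV3 CDR3s were identical. The highest number, 2, was between 5xFAD 1 and 5xFAD;Cxcr6-/- 1, 2.44% and 3.70% of their TRBV3 CDR3s, and the number of 0 was between 5xFAD 2 and 5xFAD;Cxcr6-/- 2. Pairs within a genotype had 1 each.

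A second group of similar sequences held the largest TRBV3 clonotype. It used TRBJ2-2 and had 15 residues, with glycine at 6 and 7. It comprised 5 clonotypes with 28 cells in 3 libraries, and its 3 nucleotide versions are shown with codons 5 and 8, the residues that vary, in capitals:
5xFAD 1, 24 cells, TRAV8-1 with TRAJ23: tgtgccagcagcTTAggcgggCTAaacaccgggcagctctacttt
5xFAD 2, 1 cell, TRAV7-3 with TRAJ34: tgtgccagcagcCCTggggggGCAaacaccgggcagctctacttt
5xFAD;Cxcr6-/- 1, 1 cell, TRAV6-5 with TRAJ42: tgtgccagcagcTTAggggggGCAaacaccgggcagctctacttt

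The 24-cell version was also carried by 2 single cells of 5xFAD 1 in which no α chain was assembled. In all, 17 groups of TRBV3 CDR3s within 1 residue of each other were found, with 42 of the 299 sequences, and 13 of the groups spanned 2 or more libraries. The TRBJ1-3 group was the largest, with 8 sequences and 14 clonotypes when such steps were chained, and the only group seen in all 4 libraries. The α chains did not recur with TRBV3 between libraries. TRBV3 clonotypes carried 305 distinct α chains outside the invariant chain, of which 0 were seen with TRBV3 in 2 libraries, and 0 of 311 β and α pairs were. Of the 305, 15 (4.92%) were also found with other TRBV segments.

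TRBV3 was among the most used TRBV segments in the brain T cells of all 4 libraries. It was carried by 7.08% of clonotypes in 5xFAD 1 (90 of 1272, exact 95% binomial interval 5.73% to 8.63%) and by 6.98% in 5xFAD 2 (104 of 1489, 5.74% to 8.4%). In 5xFAD;Cxcr6-/- 1 the share was 10.1% (56 of 555, 7.71% to 12.9%), and in 5xFAD;Cxcr6-/- 2 it was 7.0% (72 of 1028, 5.52% to 8.74%). Of the 4 libraries, 3 were within 0.1 percentage points of each other and 5xFAD;Cxcr6-/- 1 was higher, so the groups overlapped in clonotypes. In cells the shares were 7.52%, 7.18%, 8.99% and 7.59% in the same order, and the groups did not overlap. The nearest libraries were 5xFAD 1 and 5xFAD;Cxcr6-/- 2, whose 95% intervals overlapped widely (6.41% to 8.75% and 6.21% to 9.17%). The mean difference in cells was 0.945 percentage points, higher in 5xFAD;Cxcr6-/- (exact permutation test, p = 0.333, adjusted 0.600). These intervals cover counting error only, and cells of a clonotype are not independent.

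The 5xFAD libraries averaged 7.03% ± 0.06 of clonotypes and the 5xFAD;Cxcr6-/- libraries 8.55% ± 2.18 (mean ± SD of 2 libraries each). The difference did not pass the test: edgeR's quasi-likelihood test gave a log2 fold change of 0.24 (SE 0.20, adjusted p = 0.655), and the exact permutation test gave p = 0.667 (adjusted 0.667), where the smallest p that 2 against 2 libraries allow is 0.333. The value rested on 1 library. Without 5xFAD;Cxcr6-/- 1 the log2 fold change was -0.0050. It was 0.06 without iNKT-like clonotypes, which took a larger share of the 5xFAD libraries. In the same fit, 2 of 152 segments tested passed an adjusted p of 0.05 (1.32%), both lower in 5xFAD;Cxcr6-/-. They were TRAV11 and TRAJ18.

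By mean share over the libraries, TRBV3 stood 2nd of 22 labels. The first was TRBV12-2+TRBV13-2, a joint label of the deposited tables, with 9.73% to 16.3%. Next to TRBV3, at 7.79%, came TRBV13-3 at 7.48%, TRBV13-1 at 7.43% and TRBV19 at 7.28%. These neighbours changed places with TRBV3 between libraries and did not differ from it beyond their spread. TRBV3 was 4th, 5th, 2nd and 4th in the 4 libraries. The labels whose shares were closest to TRBV3 were TRBV13-3, with a mean absolute difference of 0.98 percentage points over the 4 libraries, and TRBV16, with 1.47.

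**Figure D2:**
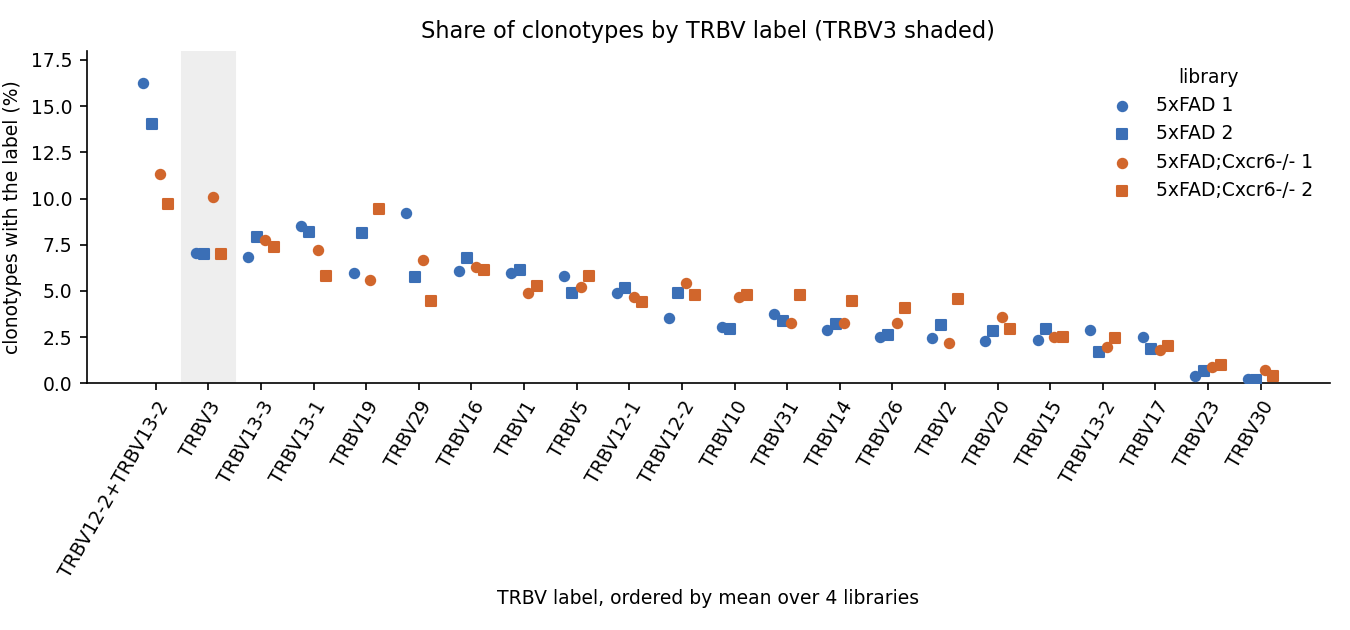
Percentage of clonotypes with each TRBV label (y axis) for the 22 labels ordered by their mean (x axis). Each point is a library, blue for 5xFAD and orange for 5xFAD;Cxcr6-/-, with circles for library 1 and squares for library 2. In the shaded TRBV3 column 3 points lie at about 7% and 5xFAD;Cxcr6-/- 1 lies at 10.1%.

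TRBV3 clonotypes were not shown to be expanded more or less often than others. An expanded clonotype is one with 2 or more cells. In 5xFAD 1, 12 of 90 TRBV3 clonotypes were expanded (13.3%), against 10.9% of other clonotypes. In 5xFAD 2 the number was 18 of 104 (17.3%, others 16.5%), in 5xFAD;Cxcr6-/- 1 7 of 56 (12.5%, others 11.8%) and in 5xFAD;Cxcr6-/- 2 11 of 72 (15.3%, others 9.62%). The share was higher for TRBV3 in 4 of 4 libraries, but by less than the counting error in each. TRBV3 use did not differ by the test between expanded and single clonotypes (log2 0.27, SE 0.25, adjusted p = 0.677, edgeR blocked on library). The sign turned with TMM scaling, to -0.16. In that fit 4 of 152 segments passed (2.63%). The interaction of expansion with genotype was 0.25 for TRBV3 (adjusted p = 0.959, edgeR).

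Counted in cells, 48.7% of TRBV3 cells were in expanded clonotypes in 5xFAD 1 (74 of 152) and 50.3% in 5xFAD 2 (87 of 173). In 5xFAD;Cxcr6-/- 1 the share was 25.8% (17 of 66), and in 5xFAD;Cxcr6-/- 2 it was 38.4% (38 of 99). For other TRBV segments these shares were 43.7%, 48.9%, 35.2% and 28.3%. TRBV3 was thus above the others in 3 of 4 libraries and below them in 5xFAD;Cxcr6-/- 1. The mean difference was 1.75 percentage points ± 8.27 (SD, n = 4; exact sign-flip test, p = 0.625, adjusted 0.667). It turned negative without the largest clonotypes, without iNKT-like clonotypes and without 5xFAD;Cxcr6-/- 2.

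Clone sizes depend on how many cells were sampled, so the genotypes were compared after each library was brought to 745 cells, the number in the smallest, by the exact expectation of a random draw. The share of TRBV3 cells in expanded clonotypes was then 41.6% in 5xFAD 1, 38.3% in 5xFAD 2, 25.8% in 5xFAD;Cxcr6-/- 1 and 32.0% in 5xFAD;Cxcr6-/- 2. The 2 groups did not overlap. They averaged 39.9% ± 2.28 and 28.9% ± 4.44 (mean ± SD of 2 libraries each), a difference of -11.0 percentage points. The exact permutation test gave p = 0.333 (adjusted 0.600), the smallest it can give here, so no difference could be shown at this number of libraries. Other TRBV segments, brought to the same number, gave 36.7%, 36.6%, 35.2% and 23.3%, lower in the same direction, and the difference between the TRBV3 and the other change was not tested. The difference was -6.45 percentage points without the largest TRBV3 clonotype of each library, and -22.7 with clones defined by both chains, at the same p of 0.333.

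**Figure D3:**
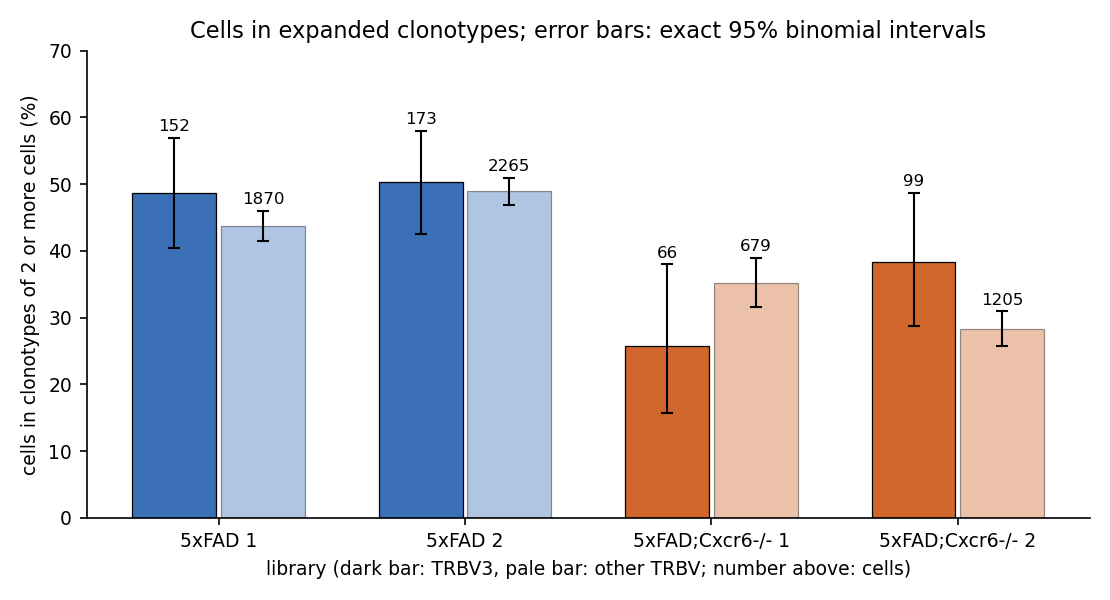
Percentage of cells in clonotypes of 2 or more cells (y axis) for TRBV3 (dark bars) and other TRBV segments (pale bars) in each library (x axis), before libraries were brought to equal size. Error bars are exact 95% binomial intervals and the numbers are cells. The TRBV3 bars are 48.7% and 50.3% in 5xFAD and 25.8% and 38.4% in 5xFAD;Cxcr6-/-.

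The largest TRBV3 clonotypes held 24, 14 and 12 cells in 5xFAD 1, 22, 8 and 8 in 5xFAD 2, 4, 3 and 2 in 5xFAD;Cxcr6-/- 1 and 8, 6 and 5 in 5xFAD;Cxcr6-/- 2. The 24 cells were 1.19% of the cells with a β chain in 5xFAD 1, where the clonotype ranked 4 among all, and the 22 cells were 0.902% in 5xFAD 2, where it ranked 7. In 5xFAD;Cxcr6-/- 2 the largest was 0.613% of cells and ranked 7, and in 5xFAD;Cxcr6-/- 1 it was 0.537% and ranked 10, level with others of its size. Clonotypes of 5 or more cells numbered 3, 6, 0 and 3. The joints of the largest clonotypes that are not shown above differ from the recurrent ones and from each other. Capitals mark the bases that match neither germline end:
5xFAD 1, 14 cells, TRBJ2-4, α TRAV12-1 with TRAJ45: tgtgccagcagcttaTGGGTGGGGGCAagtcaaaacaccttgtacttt
5xFAD 2, 22 cells, TRBJ1-5, α TRAV13-2 with TRAJ47: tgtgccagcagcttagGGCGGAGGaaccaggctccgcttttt
5xFAD 2, 8 cells, TRBJ1-1, α TRAV12D-2 with TRAJ21 and TRAV8-1 with TRAJ22 (each in 7 cells): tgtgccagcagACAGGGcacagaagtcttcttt
5xFAD 2, 8 cells, TRBJ1-2, α TRAV14D-1 with TRAJ58: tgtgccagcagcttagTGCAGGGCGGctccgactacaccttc
5xFAD;Cxcr6-/- 1, 4 cells, TRBJ1-5, α TRAV6-7-DV9 with TRAJ52: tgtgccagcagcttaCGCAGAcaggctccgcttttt
5xFAD;Cxcr6-/- 1, 2 cells, TRBJ2-5, α TRAV12-2 with TRAJ43: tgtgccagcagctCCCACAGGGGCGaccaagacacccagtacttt
5xFAD;Cxcr6-/- 2, 8 cells, TRBJ2-7, α TRAV9-1 with TRAJ23: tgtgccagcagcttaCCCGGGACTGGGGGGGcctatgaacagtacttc
5xFAD;Cxcr6-/- 2, 6 cells, TRBJ1-4, α TRAV4-3 with TRAJ30: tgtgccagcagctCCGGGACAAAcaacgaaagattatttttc
5xFAD;Cxcr6-/- 2, 5 cells, TRBJ2-1, α TRAV21-DV12 with TRAJ21 and TRAV7-1 with TRAJ22 (each in 4 cells): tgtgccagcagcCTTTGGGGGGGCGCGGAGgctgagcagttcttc

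The 22-cell clonotype kept 16 of the 17 germline V bases, and the capitals of these joints run from 6 to 18 bases. The 24-cell and 14-cell clonotypes had their α chain in every cell, and the 12-cell clonotype had it in 11. The 2-cell clonotype of 5xFAD;Cxcr6-/- 1 and the 8-cell clonotype of 5xFAD;Cxcr6-/- 2 carried a second β chain.

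TRBV3 CDR3 loops were close in length to those of other segments. The mean over TRBV3 clonotypes was 14.0 residues in both 5xFAD libraries and in 5xFAD;Cxcr6-/- 1, and 14.2 in 5xFAD;Cxcr6-/- 2, with an SD over clonotypes of 1.13 to 1.41. For other TRBV clonotypes the means were 14.0, 13.8, 13.8 and 13.9. TRBV3 was longer in 3 of 4 libraries, by a mean of 0.18 residues ± 0.18 (SD, n = 4; exact sign-flip test, p = 0.250, adjusted 0.600, smallest possible 0.125). Between genotypes, TRBV3 loops averaged 13.99 ± 0.01 residues for 5xFAD and 14.14 ± 0.14 for 5xFAD;Cxcr6-/- (mean ± SD of 2 libraries each, exact permutation test, p = 0.333, adjusted 0.600). The groups did not overlap when each clonotype counted once, with 14.00 and 14.04 in the nearest libraries. Weighted by cells they overlapped, with 14.39 and 14.05 residues for 5xFAD and 14.08 and 14.37 for 5xFAD;Cxcr6-/-, and the difference was 0.003 (exact permutation test, p = 1). Loops of 14 residues were the most frequent, with 33.0% to 41.1% of TRBV3 chains, against 28.3% to 30.6% of other chains.

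**Figure D4:**
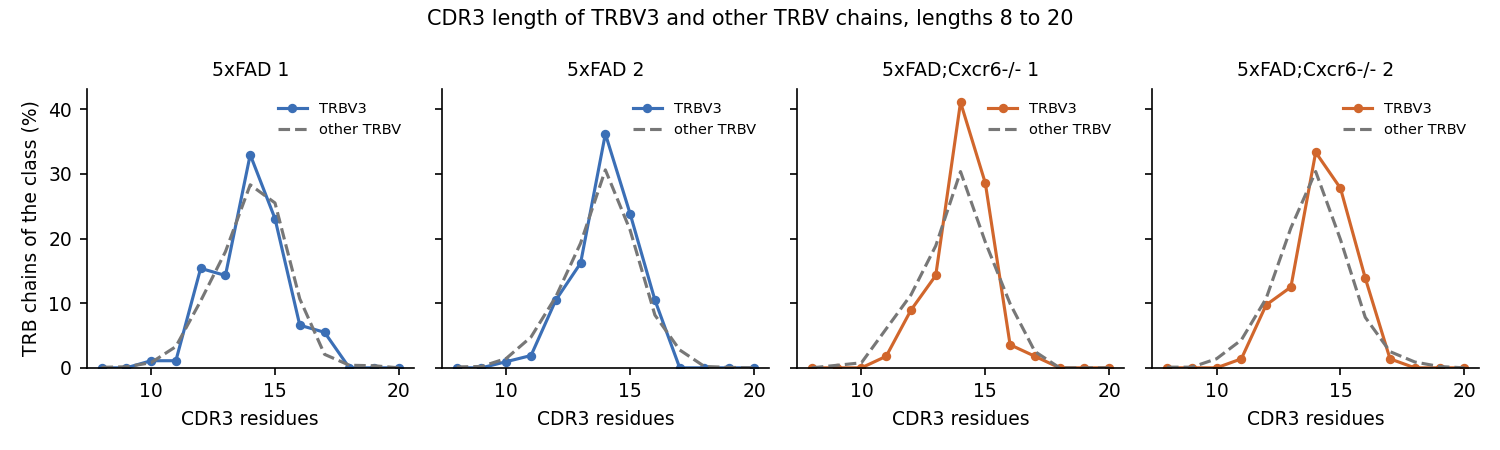
Percentage of TRB chains (y axis) by CDR3 length in residues (x axis), 1 panel per library. Coloured lines with points are TRBV3 and dashed grey lines are other TRBV segments. The most frequent TRBV3 length is 14 residues in every library.

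At the joint, TRBV3 chains kept a mean of 13.5 to 14.0 germline V bases, 18.5 to 18.7 germline J bases and 9.52 to 10.1 bases that match neither end. Other segments, for the 95.1% to 97.0% of their chains whose germline ends were found, kept 18.1 to 18.2 J bases. TRBV3 kept more J bases in 4 of 4 libraries, by 0.46 ± 0.14 (SD, n = 4), and the exact sign-flip test gave 0.125, the smallest p that 4 libraries allow (adjusted 0.600). Germline J starts differ in length between segments, with 22 bases for TRBJ1-3, and J use was not held equal. How much of the difference in J bases comes from J use was not tested. V bases differed by 0.14 ± 0.21 (exact sign-flip test, p = 0.5) and other bases by -0.06 ± 0.27 (p = 0.625, n = 4). The first 4 codons were germline in 297 of 324 TRBV3 chains (91.7%). The germline codon 5, a leucine, was intact in 118 (36.4%), and all 17 germline bases in 13. A D segment was not named for 415 of the 495 contigs (83.8%). The named ones were TRBD1 in 39 and TRBD2 in 41. TRBC1 was the constant gene in 198 contigs and TRBC2 in 293.

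Among J segments, TRBV3 was joined most often to TRBJ2-7, at a mean of 17.9% ± 3.58 of clonotypes (SD, n = 4; others 21.5% ± 1.03). TRBJ1-3 followed with 11.2% ± 5.38 (others 5.82% ± 1.07), then TRBJ2-1 with 10.8% ± 3.92 and TRBJ2-4 with 9.76% ± 4.40. For TRBV3 clonotypes only J segments of TRBV3 chains were counted, and for other clonotypes those of every counted β chain. TRBJ1-3 was found in 13.3%, 6.73%, 17.9% and 6.94% of TRBV3 clonotypes in the 4 libraries in order, against 6.77%, 6.50%, 5.61% and 4.39% of others. It was above the others in 4 of 4 libraries, and by most in library 1 of each genotype. The 11 clonotypes of the recurrent joint are part of its 34. It did not pass the test over all segments (log2 0.82, SE 0.30, adjusted p = 0.137, edgeR), except without 5xFAD 2, where the adjusted p was 0.032. TRBJ1-6 was at the other end, with 2 of 322 TRBV3 clonotypes, a mean of 0.63% ± 0.73 against 3.04% ± 0.65, and below the others in 4 of 4 libraries (log2 -2.20, SE 0.77, adjusted p = 0.113, edgeR). It passed with TMM scaling (adjusted p = 0.018) and with clones defined by both chains (0.044). TRBJ2-2 had a log2 difference of 0.58 and TRBJ1-1 of -0.34, and neither passed.

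**Figure D5:**
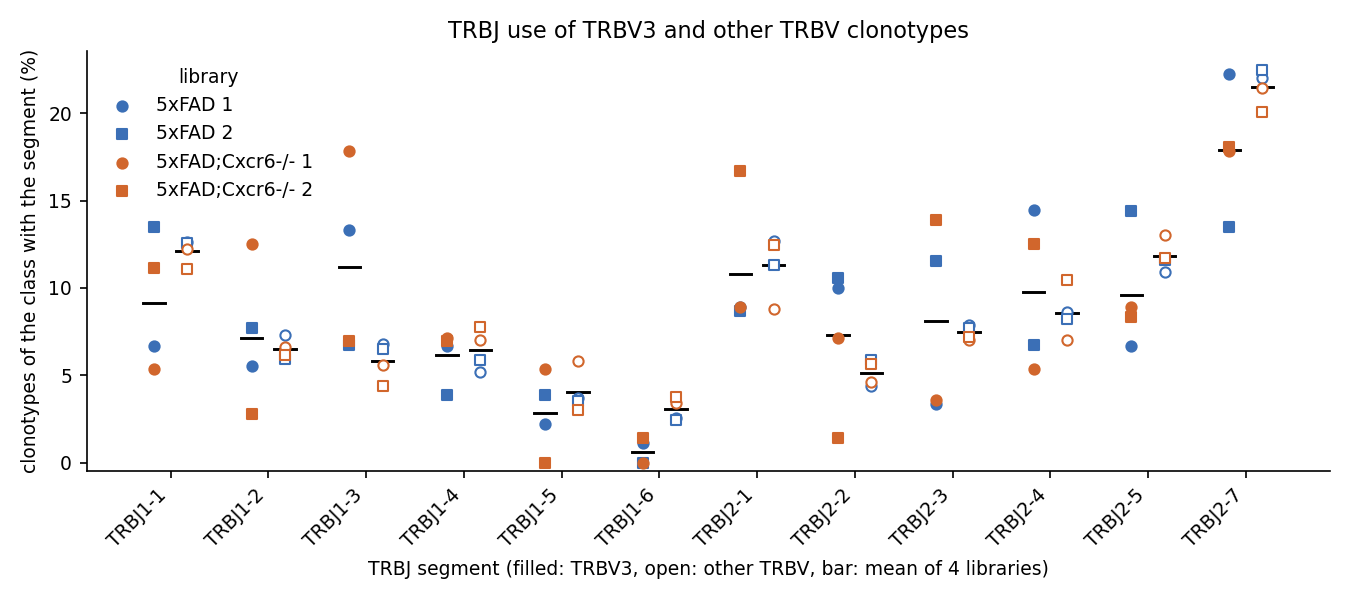
Percentage of clonotypes with each TRBJ segment (y axis, segments on the x axis) for TRBV3 (filled points) and other TRBV segments (open points). Points are libraries, blue for 5xFAD and orange for 5xFAD;Cxcr6-/-, circles for library 1 and squares for library 2, and bars are means of 4. TRBJ1-3 is higher and TRBJ1-6 lower for TRBV3 in every library, and the TRBV3 points scatter more.

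The α partners of TRBV3 were varied, and the invariant α chain was rare among them. TRAV11 and TRAJ18, which together form the α chain of invariant natural killer T (iNKT) cells, passed the test of TRBV3 against other segments, both lower with TRBV3. They were 2 of 130 J and α segments tested (1.54%). TRAV11 was carried by 4.44%, 0.962%, 1.79% and 0% of TRBV3 clonotypes, against 17.7%, 12%, 5.01% and 2.51% of others (log2 -2.45, SE 0.50, adjusted p = 1.3e-04, edgeR). TRAJ18 was lower by a similar amount (log2 -2.25, SE 0.47, adjusted p = 1.3e-04, edgeR) and nearly equal in 5xFAD;Cxcr6-/- 2, where 4.17% of TRBV3 and 4.18% of other clonotypes carried it. Both segments joined in 1 chain, the iNKT-like receptor, were found in 2, 1, 0 and 0 TRBV3 clonotypes. That is 3 of 322, against 412 of 4022 for other segments, and a count of 0 allows up to 5.36% in 5xFAD;Cxcr6-/- 1 and 4.17% in 5xFAD;Cxcr6-/- 2. Other clonotypes had iNKT-like shares of 4.81% and 2.30% in these 2 libraries, below the limits. A lower share with TRBV3 is therefore not shown in 5xFAD;Cxcr6-/- by these counts. Mouse iNKT cells are known to pair the invariant chain with few V segments, mainly TRBV13-2, TRBV29 and TRBV1. DESeq2 called 0 of the 130, with 9 at an unadjusted p under 0.05 against 13 by edgeR, so the 2 calls rest on the choice of model. With iNKT-like clonotypes left out 0 passed by edgeR, with 12 at an unadjusted p under 0.05. The MAIT-like chain of TRAV1 with TRAJ33 was found in 0 TRBV3 clonotypes.

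An α chain was assembled for 276 of the 322 TRBV3 clonotypes, 37 had 2 α chains and 25 had 2 β chains. They used 70 TRAV labels and 43 TRAJ segments, and no TRAV label reached a mean of 4%. Shares and tests of TRAV and TRAJ segments count all clonotypes, including those without an α chain. Lack of an α chain was not equally frequent in TRBV3 and other cells, as given below, and no correction was made for it. TRAV21-DV12 was highest with 3.91% ± 2.10 (SD, n = 4), against 1.01% ± 0.20 of other clonotypes, followed by TRAV13-1 (3.82%), TRAV6-7-DV9 (3.49%), TRAV7D-2 (3.26%) and TRAV12-2 (3.21%). TRAV13-1 was uneven, with 10 of its 14 clonotypes in 5xFAD 2. Among TRAJ segments TRAJ31 (6.11% ± 1.12), TRAJ23 (5.63% ± 1.48) and TRAJ22 (4.73% ± 0.85) were highest. TRAV21-DV12 and TRAJ52 were above the others in 4 of 4 libraries and had the smallest p among those higher with TRBV3, and neither passed. Their values were log2 1.87 (SE 0.60, adjusted p = 0.078, edgeR) and log2 1.67 (SE 0.55, adjusted p = 0.078, edgeR). TRAV8D-1 and TRAJ57 were higher and TRAV12D-3 and TRAJ33 lower, with adjusted p = 0.322 for all 4 by edgeR. Several TRAV segments have near-identical copies, so labels such as TRAV12D-3 or TRAV7D-2 can stand for their copy.

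TRBV3 cells without an α chain were 9.87%, 12%, 17.9% and 13.1% of TRBV3 cells in the 4 libraries in order. For other cells the shares were 21.3%, 19.6%, 15.5% and 15.8%. Median UMIs per TRBV3 contig were 11, 9.5, 12 and 10, against 10, 8, 10 and 10 for other TRB contigs, higher in 3 libraries and equal in the other. Whether α detection moved with depth was not tested. Within TRBV3 clonotypes, 0 of 29 J and α segments with at least 10 clonotypes passed between genotypes by edgeR (0%), with 1 at an unadjusted p under 0.05, and DESeq2 found 0 at either level. That segment was TRAJ49 (log2 2.43, SE 0.74, adjusted p = 0.267, edgeR). With 56 to 104 TRBV3 clonotypes in a library, a segment at a few percent rests on a handful of clonotypes. The difference between TRBV3 and other segments also showed no interaction with genotype past the threshold, with 0 of 130 called by edgeR and 1 at an unadjusted p under 0.05.

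Counting productive TRA and TRB contigs, the 4 tables held 1525 to 4778 contigs and 13460 to 34772 UMIs each, in 765 to 2522 barcodes. The 5xFAD;Cxcr6-/- libraries were below 5xFAD in all of these. The smallest, 5xFAD;Cxcr6-/- 1, had 745 cells with a β chain and set the size to which libraries were brought. Genotype and library size can therefore not be told apart in any value that was not brought to equal size.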

How the data were processed

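Receptor tables of 4 libraries, 2 per genotype, were used, and the series' 4 transcriptome samples were not. Per the submitters' processing notes the tool was Cell Ranger 6.0 and the build mm10. The receptor reference is not given in the sources used here. Each row of a deposited table is an assembled contig, with its read count and UMI count per the file headers and no normalization. Only contigs marked productive and of a TRA or TRB chain were kept, 12792 in all. Groups and replicate numbers came from the labels.

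Clonotypes were those of the deposited tables with at least 1 β chain. Of 4344, 27 had a further β chain in a minority of their cells, which was not counted. Segment use was tested as clonotypes per segment with edgeR 4.0.16 (quasi-likelihood test, log clonotype total as offset, segments with at least 10 clonotypes, Benjamini-Hochberg, threshold 0.05) in R 4.3.3, with DESeq2 1.42.0 as an alternative. The SE is the fold change over the square root of F. Single values were compared with 9 two-sided exact tests, adjusted together. Shares carry Clopper-Pearson intervals at 95%, and a 0 carries the limit of 3 counts. The edgeR fits were run on simulated counts that varied between libraries by counting error only. Such counts do not measure false calls where libraries vary more. Alternatives changed the clone definition, the unit counted, the size that makes a clonotype expanded, the scaling, the tool, the filter and the libraries, or left out iNKT-like or the largest clonotypes. Germline ends came from GENCODE vM21 transcripts (GRCm38), and a joint base counted as germline while it matched without a break. The members and lists were chosen with earlier results of these data known. Named segments were those called, the 4 TRBJ, 5 TRAV and 3 TRAJ highest in TRBV3, the 2 of each kind and direction with the smallest p, the 2 TRBV labels nearest in share, the 3 largest clonotypes per library and CDR3s in 2 or more libraries. TRAJ32, TRAJ49, the group of similar TRBJ1-3 chains and that of TRBJ2-2 are not covered by this rule and were chosen with their values in view.

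Replicate numbers 1 and 2 were not shown to pair libraries across genotypes.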

Additional observations from a re-analysis of the deposited data

How the results depend on the processing

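Of 82 alternative values, 71 kept their direction and their side of the threshold, or stayed within 1.5 times a count. The log2 difference of TRBV3 share between genotypes ran from 0.06 to 0.26 over 11 alternatives and from -0.0050 to 0.52 with 1 library left out, and -0.0050 was the value without 5xFAD;Cxcr6-/- replicate 1. TRBV3 use in expanded clonotypes turned to -0.16 with TMM scaling, and ran from 0.15 to 0.38 with 1 library left out. The difference in cells in expanded clonotypes turned to -0.067 percentage points without iNKT-like clonotypes, -0.20 with 3 cells as the minimum and -0.57 without the largest clonotypes, and ran from -1.03 to 5.48 with 1 library left out. The cause was not tested. The genotype difference in expanded TRBV3 cells ran from -22.7 percentage points with clones defined by both chains to -6.45, and from -14.2 to -7.91 with 1 library left out. CDR3 length differences ran from 0.17 to 0.42 residues between TRBV3 and others, and from 0.003 (weighted by cells) to 0.19 between genotypes. With 1 library left out they ran from 0.12 to 0.26 and from 0.04 to 0.24.

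The 2 segments called for TRBV3 against others became 0 with DESeq2, 0 without iNKT-like clonotypes, where the segments called are largely removed, and 0 with distinct TRB sequences, where only J segments are tested. The count was 2 to 3 with 1 library left out. Within TRBV3, the count between genotypes was 0 in all 8 alternatives. Shared TRBV3 CDR3s numbered 1 by nucleotides, 33 with at most 1 difference allowed, and 2 with any library left out. A fit with the replicate number as a block gave a log2 difference of 0.23 for the TRBV3 share (adjusted p = 0.678, edgeR) and 0 calls within TRBV3. The correlation of same-numbered deviations was -0.05 over 152 segments, and with 2 pairs the numbers are not shown to mark a pairing. The TRBV3 clonotypes of a library, 56 to 104, limit the precision of every share given within them.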
